A study of Mus musculus with 12 samples.

Results

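The genes described here are the cytokines, chemokines, colony-stimulating factors and the interleukin, chemokine and tumor necrosis factor (TNF) receptors of S1 mouse gastric cancer cells. They were chosen by symbol: protein-coding genes named Cxcl, Ccl, Cx3cl1, Cxcr, Ccr, Il, Tnfrsf, Tnfsf or Csf with a number, and Lif, Osmr and Lifr. The rule found 86 of 18926 genes in the tables, of which 13983 were protein coding. RefSeq holds 179 mouse protein-coding genes with such symbols, and the 93 without a row were not analysed here. Every gene with a row had counts in all 12 libraries, so a missing row does not show absence from every group. Those 93 include 14 of 16 chemokine receptors and 30 of 42 interleukins and antagonists.

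S1 is a line from a gastric tumor of a ChetPS mouse, in which Cdh1, Trp53 and Smad4 had been altered, and all 4 groups share this background and stable Cas9. Lentiviral guide RNA against neither gene (control), Rasa1, Nf2 or both (double-KO) was added, and the cells were seeded as single cells in sphere medium with epidermal growth factor. The labels call the cells monolayer cells, whereas the series title and the study's methods describe tumorspheres. Knockout cells were antibiotic-selected pools and not single clones, by the study's methods. Total RNA was sequenced in 12 libraries, 3 per group. Nothing in the labels says that libraries came from separate cultures, and the study calls the 3 libraries of a group technical replications, so p-values measure technical spread and not the spread between cultures.

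Cytokines are secreted proteins that bind receptor chains on the same or neighboring cells. Interleukin-1 family receptors and TNF receptors pass their signal mainly to NF-kB, receptors of the IL-6 and IL-2 families to JAK and STAT proteins, and chemokine receptors to G proteins that guide migrating leukocytes. Carcinoma cells and gastric epithelium make many of these ligands, and soluble antagonists and decoy receptors limit them. Nf2 encodes merlin, which restrains YAP and TAZ, the partners of TEAD factors, and Rasa1 encodes a GTPase-activating protein that switches off Ras.

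The targeted genes did not follow the labels in every group. Nf2 stood at 11.4, 13.3 and 12.1 FPKM in control libraries, 2.40, 2.34 and 2.82 in Rasa1-KO-labelled libraries, 2.88, 3.66 and 2.61 in Nf2-KO libraries and 11.8, 10.9 and 11.3 in double-KO-labelled libraries. For Rasa1, control libraries held 10.9, 14.3 and 15.6 FPKM, Rasa1-KO-labelled libraries 5.999, 5.40 and 5.32, Nf2-KO libraries 17.8, 18.9 and 17.4 and double-KO-labelled libraries 3.09, 3.62 and 4.35. Nf2 was therefore low in the Rasa1-KO-labelled libraries and near the control level in the double-KO-labelled group, whereas Rasa1 was low in both. The names of the deposited tables also exchange these labels. These libraries are called Rasa1-KO-labelled and double-KO-labelled throughout, and every direction that involves either group rests on those labels: if they are exchanged, the values of both groups change places. A guide can also disrupt a protein without lowering its mRNA, so mRNA alone checks the labels in part. In the Nf2-KO libraries, however, Nf2 mRNA was low in every library.

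Library depth was between 43818139 and 96674463 counts. The control libraries varied most among themselves: over them, 34 of the 86 genes ranged over more than 2-fold in depth-scaled counts, against 15 in the double-KO-labelled libraries, 6 in the Rasa1-KO-labelled group and 5 in Nf2-KO. Of 10 epithelial markers 8 had a row, with a summed level of 2068 to 4370 FPKM over the libraries, and Cldn7 and Esrp1 had none. The sum does not show that each marker was high. Of 18 leukocyte markers 5 had a row. Their summed level was 149 to 206 FPKM in control, 52.7 to 58.0 in Rasa1-KO-labelled libraries, 38.7 to 39.6 in Nf2-KO and 116 to 125 in the double-KO-labelled group, most of it Cd14, while Ptprc, the leukocyte-defining CD45, had a group mean of at most 0.0709 FPKM. Of 10 fibroblast markers 8 had a row. Their summed level was 22.7 to 186 FPKM in control, 398 to 428 in Rasa1-KO-labelled libraries, 1160 to 1239 in Nf2-KO and 25.6 to 55.0 in the double-KO-labelled group. In Nf2-KO most of this sum was Col3a1, a collagen. These markers moved with many results below, and their part in them was not tested. The 3 endothelial markers with a row summed to less than 0.5 FPKM. All libraries came from the cultured S1 line, so these markers do not count leukocytes, fibroblasts or endothelial cells of a tissue. In bulk RNA, fewer S1 cells that express a gene and less of its RNA per cell cannot be told apart.

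Values per library are given in the order unnumbered, 1 and 2 for control and Rasa1-KO-labelled libraries and 1, 2 and 3 for the other groups. Levels are given as FPKM, which divide counts by transcript length and depth and so allow genes to be compared. Between 53 and 62 of the 86 genes reached 1 FPKM in a library, and 5 to 7 reached 50. The highest mean over the 12 libraries was that of Cxcl5, a neutrophil-attracting chemokine, at 666 FPKM, followed by the chemokines Cxcl1 at 227 and Ccl2 at 226. Il33, an alarmin stored in epithelial nuclei, averaged 148 FPKM, Tnfrsf12a, the receptor of the ligand TWEAK, 131, and Il1rn, the interleukin-1 receptor antagonist, 98.9. Cxcl16, Il13ra1, Ccl20 and Osmr completed the 10 highest, at 51.0, 46.3, 32.7 and 30.1 FPKM. The level of Cxcl5 was 1596, 821 and 1011 FPKM in control, 532, 426 and 435 in the Rasa1-KO-labelled group, 342, 395 and 393 in Nf2-KO and 760.1, 605 and 679 in the double-KO-labelled group. Every library outside the control group lay below the lowest control library in FPKM, but a double-KO-labelled library overlapped control in depth-scaled counts. Cxcl1 stood at 396, 259 and 158 FPKM in control libraries, 193, 172 and 175 in Rasa1-KO-labelled libraries, 203, 224 and 224 in Nf2-KO libraries and 270.5, 209 and 237 in double-KO-labelled libraries. The Cxcl1 libraries of every other group lay within the range of the control libraries.

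**Figure D1:**
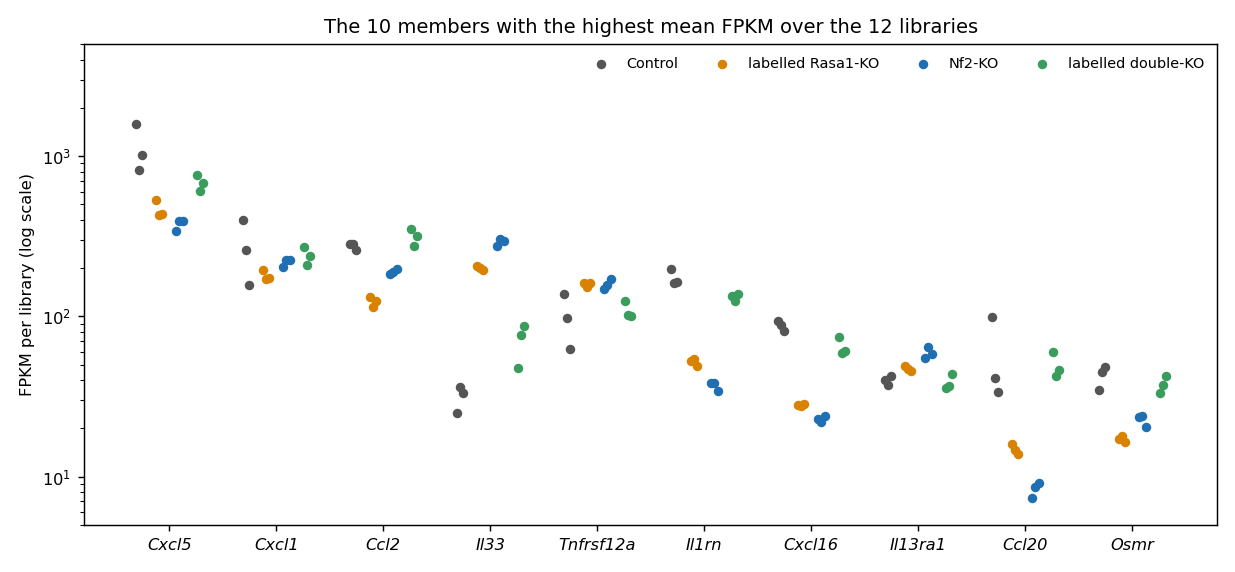
Level of the 10 cytokine and receptor genes with the highest mean, in FPKM on a log scale, with 1 point per library and colors for the 4 groups. Il33 ran from 24.8 FPKM in a control library to 303 in an Nf2-KO library, whereas Il1rn and Ccl20 ran the other way, from 199 and 99.1 FPKM in a control library to 34.0 and 7.40 in an Nf2-KO library.

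The first comparison asked which of these genes differed anywhere among the 4 groups. With edgeR's quasi-likelihood test of the counts and Benjamini-Hochberg adjustment over 18053 genes, 58 of the 86 were called at an adjusted p under 0.05, which is 67.4%, against 46.3% of all genes tested. All 86 passed the filter on low counts, and 21 were called in none of the 6 contrasts that follow. In Rasa1-KO-labelled libraries, 18 genes were higher than in control and 33 lower, with 19.7% of all genes higher and 22.2% lower. The median log2 fold change of the 86 was -0.44 there, and that of all genes -0.08. In Nf2-KO, 19 were higher and 31 lower (20.6% and 22.2% of all genes), with a median of -0.34 against -0.07. The share of members called lower was thus 38.4% and 36.0%, above the share of all genes. Both comparisons use the same control libraries.

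Counts by role are given as a description, with no test between roles, and most roles are small. In Rasa1-KO-labelled libraries, 4 of 9 CXC and CX3C chemokines were lower and 1 was higher, and 11 of 25 interleukin receptor chains were lower and 7 higher. In Nf2-KO these counts were 4 and 0, and 9 and 7. Of 12 interleukins and antagonists, 6 were higher and 4 lower in Rasa1-KO-labelled libraries, and 5 higher and 4 lower in Nf2-KO. Of 14 TNF receptors 4 were lower and 1 was higher in each of these groups. Of 5 colony-stimulating factors and receptors, 3 were lower in Rasa1-KO-labelled libraries, and 2 lower and 2 higher in Nf2-KO. Of 4 genes of the LIF and oncostatin M set, 3 and 2 were lower. In double-KO-labelled libraries no role had more than 2 genes called in a direction.

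**Figure D2:**
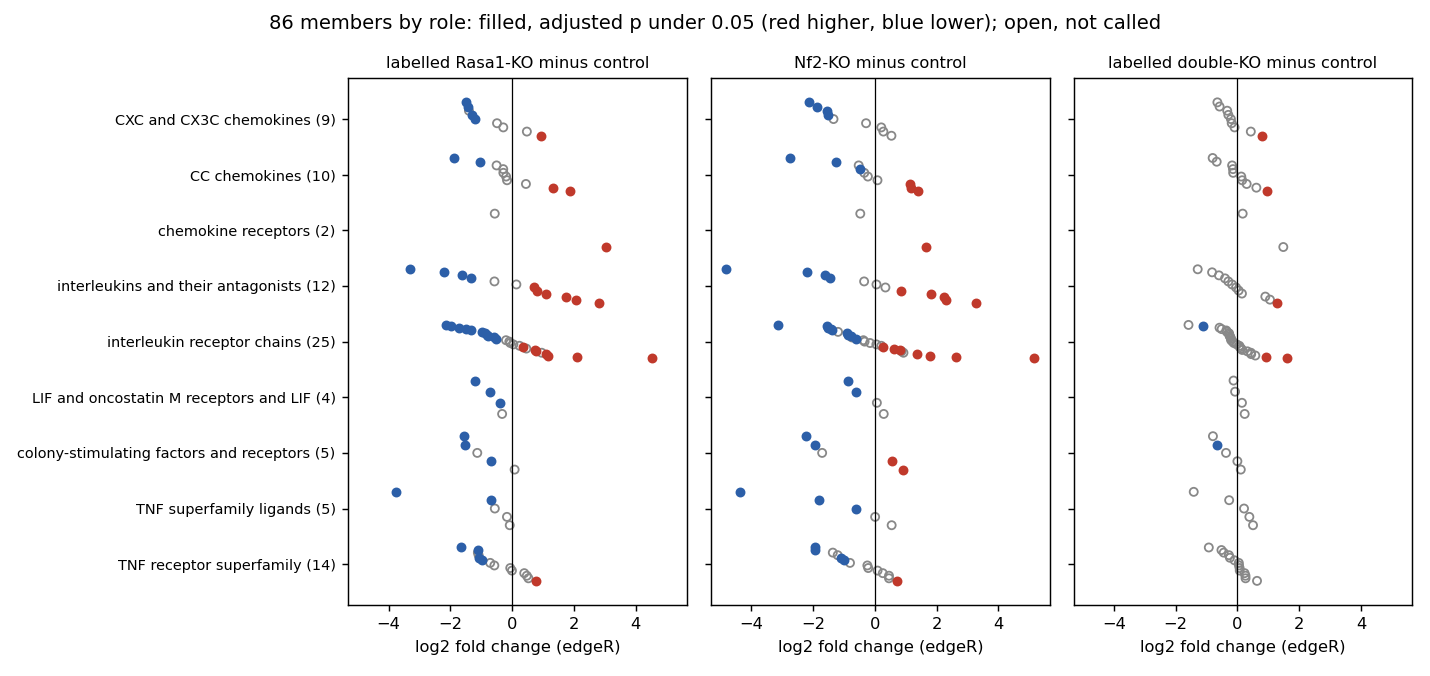
Log2 fold change against control of the 86 genes, grouped by role with the number of genes in parentheses, for Rasa1-KO-labelled libraries (left), Nf2-KO (middle) and double-KO-labelled libraries (right). Filled points passed an adjusted p under 0.05 (red higher, blue lower) and open points did not: 51, 50 and 7 of 86 were filled.

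The largest rise was that of Il1rl1, the receptor of Il33, and Il33 rose with it. IL-33 binds Il1rl1 (ST2), which pairs with the accessory chain Il1rap to signal through MyD88. For Il33, control libraries held 24.8, 36.5 and 33.0 FPKM, Rasa1-KO-labelled libraries 205, 202 and 196, Nf2-KO libraries 275, 303 and 293 and double-KO-labelled libraries 47.8, 76.6 and 87.6. The level of Il1rl1 was 0.269, 0.999 and 0.960 FPKM in control, 17.0, 17.6 and 17.3 in the Rasa1-KO-labelled group, 26.7, 29.6 and 27.6 in Nf2-KO and 0.614, 0.955 and 1.23 in the double-KO-labelled group. No library of the Rasa1-KO-labelled or Nf2-KO groups overlapped a control library for either gene, and the receptor was near 1 FPKM or below in both other groups. Il1rl1 was 23.2-fold higher than control in Rasa1-KO-labelled libraries (log2 fold change 4.54 ± 0.35, adjusted p = 2.57e-06) and 35.9-fold higher in Nf2-KO (log2 fold change 5.17 ± 0.36, adjusted p = 7.99e-07). Il33 was 6.98-fold higher (log2 fold change 2.80 ± 0.19, adjusted p = 1.3e-06) and 9.67-fold higher (log2 fold change 3.27 ± 0.20, adjusted p = 3.24e-07). Il1rap stood at 1.38, 2.23 and 2.12 FPKM in control libraries, 3.59, 4.25 and 3.59 in Rasa1-KO-labelled libraries, 6.38, 6.63 and 6.32 in Nf2-KO libraries and 1.67, 1.98 and 2.42 in double-KO-labelled libraries. This chain, shared by IL-1, IL-33 and IL-36 receptors, was 2.13-fold and 3.45-fold higher (adjusted p = 0.000341 and 7.55e-06, edgeR). Its level was higher in Nf2-KO than in Rasa1-KO-labelled libraries, by a log2 difference of 0.69 ± 0.16 (SE, adjusted p = 0.0385). This call was lost under 9 of 22 alternatives. In double-KO-labelled libraries, Il33 alone of these 3 was called against control, at 2.43-fold (log2 fold change 1.28 ± 0.19, adjusted p = 0.00216), while Il1rl1 and Il1rap had log2 fold changes of 0.44 and 0.16. Both Il33 and Il1rl1 reached 1 FPKM in 7 of 12 libraries.

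**Figure D3:**
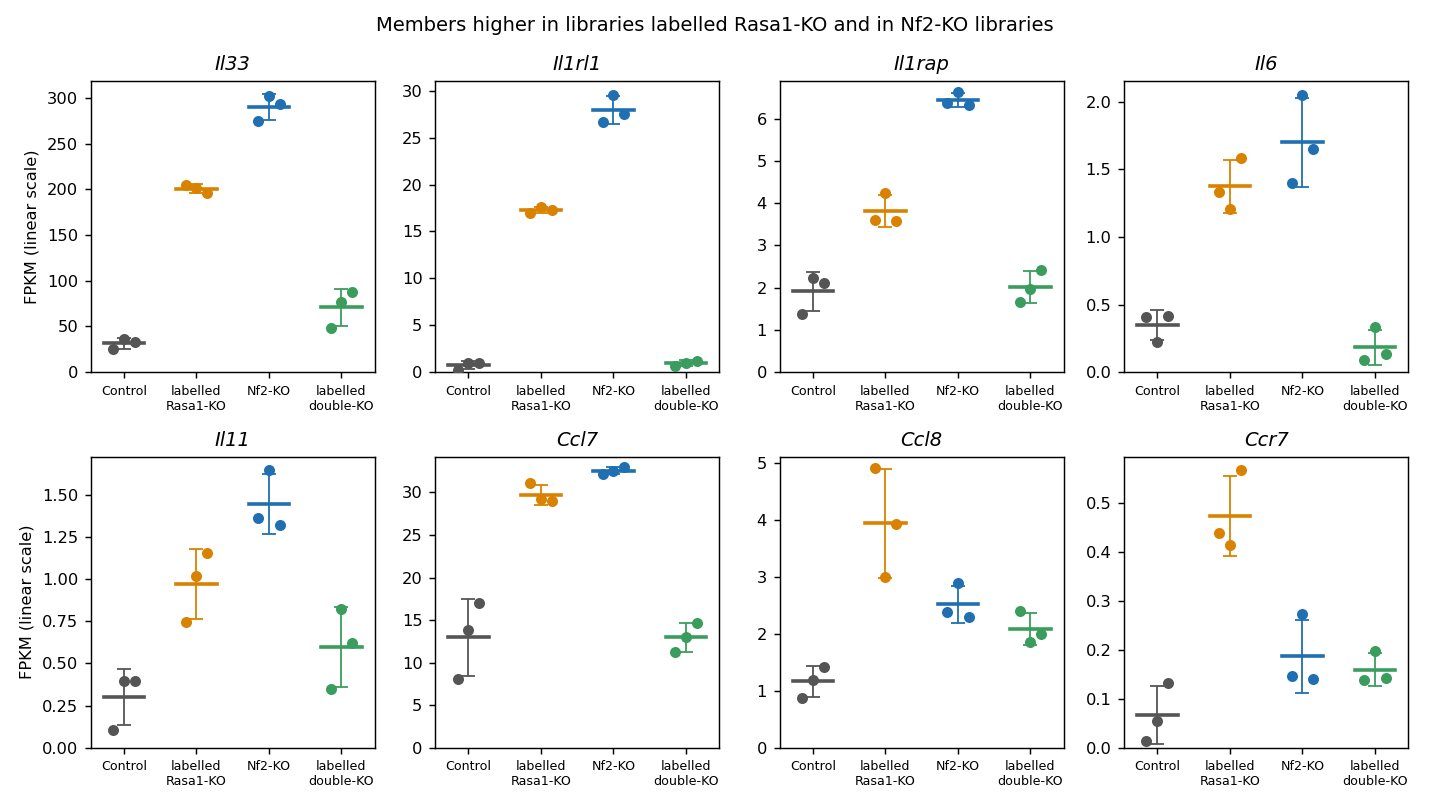
FPKM (linear scale from 0) of 8 genes called higher than control in Rasa1-KO-labelled libraries and in Nf2-KO: points are libraries, lines are means and bars are SD over 3 libraries per group. For Il33, Il1rl1, Il6 and Ccl7 every library of these groups stood above every control library and every double-KO-labelled library. These genes were named by a rule that asks for groups without overlap, so the separation follows in part from that choice.

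Sequence upstream of the starts of these and 2 further genes is shown because all 4 genes were called in both groups and hold letters of 3 motifs: GGAATG for TEAD, TGANTCA for AP-1 and GGANTTTCC for NF-kB, searched on both strands, with matches in capitals. The 250 bases before a start are from RefSeq (GRCm38.p6), all on the plus strand, at chr19:29924863-29925112 and chr19:29945540-29945789 for Il33, chr1:40429320-40429569 and chr1:40439379-40439628 for Il1rl1, chr2:24336610-24336859 for Il1rn and chr5:30012864-30013113 for Il6. The level per gene does not say which start was used.
Il33, upstream start: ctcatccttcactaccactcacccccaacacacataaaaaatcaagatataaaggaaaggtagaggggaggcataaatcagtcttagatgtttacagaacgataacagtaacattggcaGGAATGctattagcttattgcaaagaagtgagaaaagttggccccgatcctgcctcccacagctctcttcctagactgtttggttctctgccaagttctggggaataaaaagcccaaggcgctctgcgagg
Il33, downstream start: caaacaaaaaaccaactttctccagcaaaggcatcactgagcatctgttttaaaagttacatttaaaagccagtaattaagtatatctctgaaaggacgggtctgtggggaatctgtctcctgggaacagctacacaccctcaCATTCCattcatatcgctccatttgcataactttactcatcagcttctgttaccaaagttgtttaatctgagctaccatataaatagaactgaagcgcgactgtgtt
Il1rl1, upstream start: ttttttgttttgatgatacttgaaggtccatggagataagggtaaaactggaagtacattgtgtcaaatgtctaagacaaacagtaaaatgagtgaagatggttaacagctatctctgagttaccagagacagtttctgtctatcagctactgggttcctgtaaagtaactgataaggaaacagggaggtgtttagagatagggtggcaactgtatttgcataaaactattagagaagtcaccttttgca
Il1rl1, downstream start: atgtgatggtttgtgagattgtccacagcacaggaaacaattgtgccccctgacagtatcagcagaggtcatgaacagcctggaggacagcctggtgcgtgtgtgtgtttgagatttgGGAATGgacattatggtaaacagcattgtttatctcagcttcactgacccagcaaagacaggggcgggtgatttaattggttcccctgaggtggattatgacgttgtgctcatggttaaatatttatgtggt
Il1rn, upstream start: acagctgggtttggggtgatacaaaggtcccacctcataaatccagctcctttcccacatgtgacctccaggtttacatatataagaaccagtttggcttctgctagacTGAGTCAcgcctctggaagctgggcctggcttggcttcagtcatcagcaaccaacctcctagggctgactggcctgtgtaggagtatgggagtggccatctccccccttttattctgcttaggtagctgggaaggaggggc
Il6: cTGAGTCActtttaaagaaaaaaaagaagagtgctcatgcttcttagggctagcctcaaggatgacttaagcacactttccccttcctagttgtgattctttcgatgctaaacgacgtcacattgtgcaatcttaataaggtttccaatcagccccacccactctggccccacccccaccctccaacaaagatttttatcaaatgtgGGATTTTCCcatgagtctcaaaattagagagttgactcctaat
Both Il33 sequences and the downstream Il1rl1 sequence hold the TEAD letters, 131, 107 and 132 bases before the start. The downstream Il1rl1 window also holds the NF-kB letters, in the 50 bases after the start that are not shown. The window of a further Il1rn start, not printed here, holds the TEAD letters 24 bases upstream, and so do Ccl20 and Il17re, both lower in these groups, 45 and 59 bases upstream. Of the 17 members that hold the TEAD letters, 2 were higher and 11 lower in Rasa1-KO-labelled libraries, and 2 higher and 10 lower in Nf2-KO. Among all 86 members, 18 were higher and 33 lower in Rasa1-KO-labelled libraries, and 19 and 31 in Nf2-KO. Among all genes, 19.7% and 20.6% were higher in these groups and 22.2% lower in each. Whether the letters had a part in these directions was not tested. The Il1rn sequence shown holds the AP-1 letters, and Il6 holds both the AP-1 and the NF-kB letters. The windows of Il1rap and Il18, both called in these groups as well, hold none of the letters, and neither does another Il1rn start. Of the 17 members that hold the AP-1 letters, 5 were higher and 7 lower in Rasa1-KO-labelled libraries, and 4 higher and 8 lower in Nf2-KO. Over windows of 300 bases (250 before to 50 after a start), the TEAD letters stood in 27.0% of the 63 members with a window and in 16.6% of 27025 genes. AP-1 letters stood in 27.0% against 8.97%, and NF-kB letters in 14.3% (9 genes) against 1.45%. These 9 were Csf1, Cxcl1, Cxcl2, Cxcl3, Cxcl10, Il16, Il18rap, Il1rl1 and Il6. Among them, Il1rl1 and Il6 were called higher in both of these groups and Il18rap lower in both, Il16 was called higher in both with the less stable call given below, whereas Csf1 differed in direction. Cxcl10 was called in Rasa1-KO-labelled libraries and not in Nf2-KO, and Cxcl1, Cxcl2 and Cxcl3 were called in neither. A match of letters is a description and not a binding site.

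IL-6 and IL-11 signal through Il6st (gp130), as do LIF and oncostatin M with their own receptor chains. For Il6, control libraries held 0.409, 0.220 and 0.412 FPKM, Rasa1-KO-labelled libraries 1.33, 1.20 and 1.59, Nf2-KO libraries 1.40, 2.05 and 1.65 and double-KO-labelled libraries 0.0872, 0.330 and 0.132. The level of Il11 was 0.106, 0.395 and 0.394 FPKM in control, 0.743, 1.02 and 1.15 in the Rasa1-KO-labelled group, 1.36, 1.65 and 1.32 in Nf2-KO and 0.347, 0.824 and 0.619 in the double-KO-labelled group. Both ligands were low but separated from control: Il6 was 4.17-fold higher in Rasa1-KO-labelled libraries (log2 fold change 2.06 ± 0.42, adjusted p = 0.00258) and 4.96-fold higher in Nf2-KO (log2 fold change 2.31 ± 0.43, adjusted p = 0.00111). Il11 was 3.36-fold and 4.76-fold higher (adjusted p = 0.00611 and 0.00123). Osmr stood at 34.9, 45.1 and 48.6 FPKM in control libraries, 17.2, 17.8 and 16.4 in Rasa1-KO-labelled libraries, 23.5, 23.9 and 20.3 in Nf2-KO libraries and 33.4, 37.2 and 42.6 in double-KO-labelled libraries. The oncostatin M receptor was lower in both groups without overlap, with log2 fold changes of -1.20 ± 0.11 and -0.86 ± 0.11 (SE). Lif was lower too, by 0.72 and 0.62 on the log2 scale, but with libraries that overlapped control, and its call was lost under 5 and 11 of 22 alternatives. Il6st was 22.01 to 24.98 FPKM in Rasa1-KO-labelled libraries and 27.0 to 36.9 in control, a log2 fold change of -0.39 ± 0.11 (adjusted p = 0.0153), and 0.07 ± 0.11 in Nf2-KO. Neither Lifr nor Il6ra, the IL-6-binding chain, was called against control in any group. Both receptors of IL-11, Il11ra1 and Il11ra2, were uncalled as well. Il11ra1 and Il11ra2 each overlap a Ccl27 gene on chromosome 4 and are near copies, so their counts are uncertain.

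The antagonist Il1rn and the agonist Il1f6 (IL-36 alpha), neighbors on chromosome 2, were both lower. For Il1rn, control libraries held 199, 161 and 164 FPKM, Rasa1-KO-labelled libraries 52.8, 54.0 and 49.0, Nf2-KO libraries 38.3, 38.2 and 34.0 and double-KO-labelled libraries 133, 125 and 139. The level of Il1f6 was 31.6, 14.0 and 14.2 FPKM in control, 1.68, 2.03 and 1.98 in the Rasa1-KO-labelled group, 0.455, 0.629 and 0.981 in Nf2-KO and 10.6, 5.70 and 6.67 in the double-KO-labelled group. The groups did not overlap control for either gene. Il1rn fell to 0.323 of control in Rasa1-KO-labelled libraries (log2 fold change -1.63 ± 0.12, adjusted p = 1.77e-06) and to 0.219 in Nf2-KO (log2 fold change -2.19 ± 0.12, adjusted p = 1.72e-07). Il1f6 fell to 0.102 (log2 fold change -3.29 ± 0.41, adjusted p = 8.09e-05) and 0.0358 (log2 fold change -4.80 ± 0.44, adjusted p = 6.58e-06). The unnumbered control library held 31.6 FPKM of Il1f6, over 2-fold the other control libraries, and the direction was the same without it. Il1r1, the signaling IL-1 receptor, was lower by 0.98 and 0.61 on the log2 scale (adjusted p = 0.00102 and 0.0145).

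Interleukin-18 and all 3 of its listed partners were lower together. IL-18 is an epithelial cytokine of the IL-1 family, Il18r1 and Il18rap form its receptor, and Il18bp is a secreted inhibitor. Il18 stood at 8.39, 7.67 and 7.86 FPKM in control libraries, 2.64, 2.94 and 2.90 in Rasa1-KO-labelled libraries, 2.76, 2.77 and 2.88 in Nf2-KO libraries and 6.60, 7.22 and 9.07 in double-KO-labelled libraries. Each Il18 library of the Rasa1-KO-labelled and Nf2-KO groups stood below 3 FPKM. Il18 fell by 1.34 ± 0.15 and 1.45 ± 0.15 on the log2 scale (SE), Il18bp by 2.22 ± 0.31 and 1.61 ± 0.30, Il18r1 by 0.81 ± 0.11 and 1.41 ± 0.11 and Il18rap by 0.88 ± 0.10 and 0.89 ± 0.10. All 8 adjusted p-values were at or under 0.00121 (edgeR). In double-KO-labelled libraries the 4 genes had log2 fold changes of -0.40 to 0.08 and none was called.

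Il1r1, Il1rl1, Il18r1 and Il18rap lie in this order on chromosome 1, within chr1:40222480-40551707, and Il18r1 begins just after Il1rl1 ends. Il1rl1 rose by over 4 on the log2 scale in both of these groups while all 3 neighbors were lower. A similar split stood on chromosome 11 among 3 genes of CC chemokines that attract monocytes. For Ccl2, control libraries held 283, 281 and 261 FPKM, Rasa1-KO-labelled libraries 133, 115 and 125, Nf2-KO libraries 185, 189 and 199 and double-KO-labelled libraries 352, 273 and 317. The level of Ccl7 was 8.10, 13.9 and 17.0 FPKM in control, 31.1, 29.2 and 28.9 in the Rasa1-KO-labelled group, 32.2, 32.6 and 33.0 in Nf2-KO and 11.3, 13.1 and 14.6 in the double-KO-labelled group. Ccl2 was lower in every Rasa1-KO-labelled and Nf2-KO library than in any control library, with log2 fold changes of -1.03 ± 0.12 and -0.47 ± 0.12, whereas Ccl7 was 2.52-fold and 2.65-fold higher (adjusted p = 0.000212 and 0.000116). Ccl8 stood at 0.880, 1.19 and 1.43 FPKM in control libraries, 4.91, 2.99 and 3.92 in Rasa1-KO-labelled libraries, 2.38, 2.89 and 2.29 in Nf2-KO libraries and 2.41, 1.86 and 1.99 in double-KO-labelled libraries. Ccl8 was 3.70-fold and 2.26-fold higher in these groups, and 1.95-fold higher in double-KO-labelled libraries (adjusted p = 0.0480), where the call was lost under 15 of 22 alternatives, among them leaving out any 1 double-KO-labelled library. Of 11 clusters of members within 1000000 bases of each other, which hold 32 of the 86 genes, 3 had a member called higher and another called lower in Nf2-KO. The third pairs Csf3 and Ccr7 on chromosome 11.

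**Figure D4:**
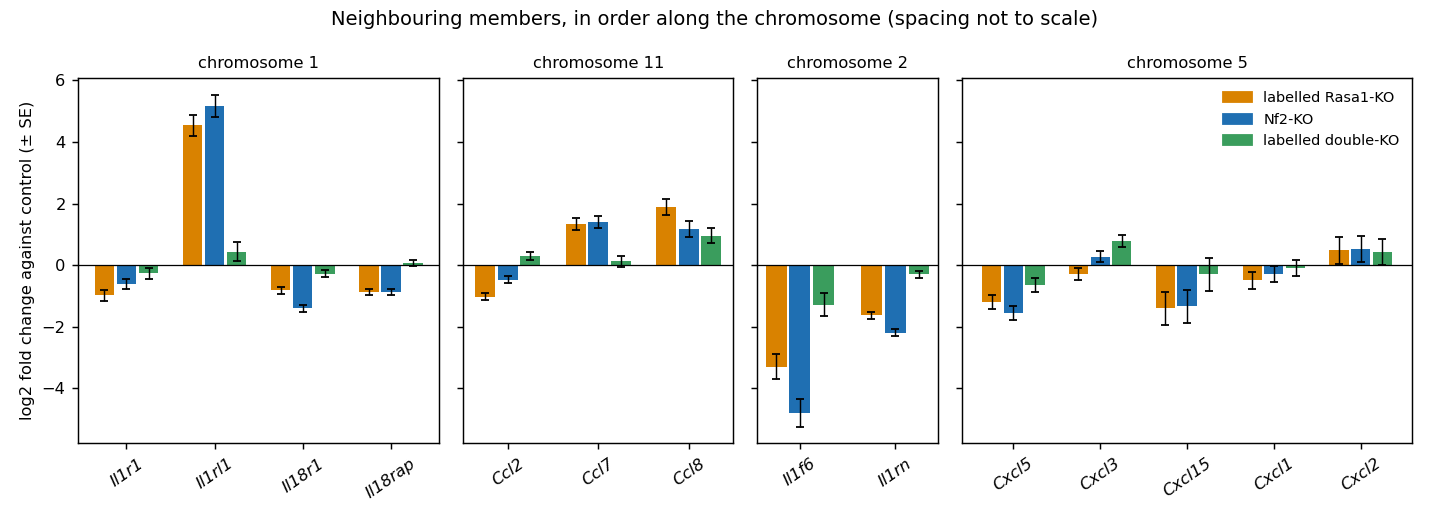
Log2 fold change against control (bars, with SE) of members that neighbor each other, in chromosome order, for 3 groups. Il1rl1 stood at 4.54 and 5.17 between neighbors at -1.41 to -0.61, and Ccl2 was below 0 in the Rasa1-KO-labelled and Nf2-KO groups, where Ccl7 and Ccl8 were above.

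Receptors of the IL-17, IL-22 and IL-20 families, which epithelia use to sense lymphocyte cytokines, moved in both directions. For Il17re, control libraries held 3.38, 4.12 and 4.50 FPKM, Rasa1-KO-labelled libraries 1.19, 1.33 and 1.36, Nf2-KO libraries 0.457, 0.378 and 0.451 and double-KO-labelled libraries 2.64, 2.91 and 3.18. Il17re, the receptor chain for IL-17C, fell to 0.352 of control in Rasa1-KO-labelled libraries and to 0.114 in Nf2-KO (adjusted p = 1.21e-05 and 6.33e-08), and these groups differed by 1.62 ± 0.15 on the log2 scale (adjusted p = 0.000238). The level of Il22ra1 was 11.1, 10.3 and 10.3 FPKM in control, 3.92, 3.97 and 3.62 in the Rasa1-KO-labelled group, 3.44, 3.29 and 3.55 in Nf2-KO and 9.94, 7.55 and 7.88 in the double-KO-labelled group. Il22ra1, which binds IL-22, was lower by 1.34 ± 0.13 and 1.56 ± 0.13. Il10rb, the chain that IL-22 and IL-10 share, was lower by 0.60 and 0.86, and Il20rb by 1.71 and 1.52, with libraries of the latter that overlapped control in Nf2-KO. Il17rd, known as an inhibitor of FGF and ERK signaling, moved the other way. Il17rd stood at 0.760, 0.940 and 1.08 FPKM in control libraries, 1.36, 1.60 and 1.28 in Rasa1-KO-labelled libraries, 2.44, 2.36 and 2.11 in Nf2-KO libraries and 1.40, 0.979 and 1.10 in double-KO-labelled libraries. It was 1.66-fold higher in Rasa1-KO-labelled libraries and 2.60-fold higher in Nf2-KO (adjusted p = 0.00315 and 3.33e-05). Il17rc was lower in Rasa1-KO-labelled libraries (log2 fold change -0.53 ± 0.15), and Il17ra, the shared chain, was 0.26 ± 0.10 higher in Nf2-KO, a call that was lost under 18 of 22 alternatives.

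The chains of the IL-4 and IL-13 receptors did not move alike. For Il4ra, control libraries held 8.38, 16.3 and 13.1 FPKM, Rasa1-KO-labelled libraries 20.1, 19.2 and 20.2, Nf2-KO libraries 20.04, 21.6 and 21.8 and double-KO-labelled libraries 17.8, 23.8 and 25.3. Il4ra was 1.72-fold, 1.76-fold and 1.92-fold higher than control in Rasa1-KO-labelled libraries, in Nf2-KO and in double-KO-labelled libraries (adjusted p = 0.0063, 0.00454 and 0.013), without overlap with the control libraries. Il13ra1, its partner, was 1.28-fold and 1.55-fold higher in the Rasa1-KO-labelled and Nf2-KO groups. The level of Il13ra2 was 4.95, 5.23 and 6.49 FPKM in control, 3.07, 2.72 and 2.69 in the Rasa1-KO-labelled group, 2.80, 3.29 and 2.82 in Nf2-KO and 2.06, 2.12 and 2.98 in the double-KO-labelled group. Il13ra2, a decoy for IL-13, was lower in all 3 groups, by 0.78 ± 0.14, 0.78 ± 0.14 and 1.13 ± 0.14 on the log2 scale. Il15ra fell to 0.252 and 0.387 of control in Rasa1-KO-labelled libraries and in Nf2-KO (adjusted p = 0.000206 and 0.00188). Il15, its ligand, was 1.65-fold higher in Rasa1-KO-labelled libraries and had a log2 fold change of 0.05 in Nf2-KO.

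Low-level receptor chains gave further calls. Il12rb1, a chain of the IL-12 and IL-23 receptors, was 0.0333 to 0.179 FPKM in control, 0.483 to 0.579 in Rasa1-KO-labelled libraries, 0.769 to 0.990 in Nf2-KO and 0.0680 to 0.218 in the double-KO-labelled group. It was 4.32-fold and 6.25-fold higher in the Rasa1-KO-labelled and Nf2-KO groups (adjusted p = 0.0042 and 0.000961). Il2rg, the shared gamma chain, was lower in Rasa1-KO-labelled libraries (log2 fold change -2.13 ± 0.50). Il5ra stood at 0.500, 0.862 and 0.811 FPKM in control libraries, 1.69, 1.42 and 1.33 in Rasa1-KO-labelled libraries, 0.384, 0.393 and 0.452 in Nf2-KO libraries and 0.973, 2.23 and 3.01 in double-KO-labelled libraries. Il5ra, the IL-5-binding chain, was higher than control in both the Rasa1-KO-labelled and the double-KO-labelled group, by 1.15 ± 0.33 and 1.61 ± 0.33, and -0.74 in Nf2-KO was not called. Il34, a ligand of Csf1r, was 1.75-fold and 1.80-fold higher, and Il16 2.12-fold and 3.57-fold higher from control levels of at most 0.0650 FPKM (adjusted p = 0.0493 and 0.00355). The Il16 call in Rasa1-KO-labelled libraries was lost under 15 of 22 alternatives.

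Among CXC chemokines, which attract neutrophils or lymphocytes, Cxcl5, Cxcl16 and Cxcl17 were lower, and so was Cx3cl1, a membrane-bound chemokine. For Cxcl16, control libraries held 94.1, 88.4 and 81.1 FPKM, Rasa1-KO-labelled libraries 28.2, 27.8 and 28.4, Nf2-KO libraries 23.0, 22.1 and 23.9 and double-KO-labelled libraries 74.8, 59.4 and 60.9. The level of Cxcl17 was 11.9, 12.2 and 11.3 FPKM in control, 4.33, 3.89 and 3.78 in the Rasa1-KO-labelled group, 2.42, 2.48 and 2.86 in Nf2-KO and 4.49, 8.61 and 9.02 in the double-KO-labelled group. The Rasa1-KO-labelled and Nf2-KO libraries lay below control for Cxcl16, a transmembrane chemokine, with log2 fold changes of -1.51 ± 0.13 and -1.88 ± 0.13. Cxcl17, a mucosal chemokine, fell by 1.44 ± 0.23 and 2.13 ± 0.23 and Cxcl5 by 1.19 ± 0.23 and 1.56 ± 0.23. Cx3cl1 fell to 0.409 and 0.353 of control (adjusted p = 4.53e-05 and 1.09e-05). Cxcl10, an interferon-induced chemokine, was 1.92-fold higher in Rasa1-KO-labelled libraries and had a log2 fold change of 0.21 in Nf2-KO. Cxcl15 had log2 fold changes of -1.40 and -1.34 that were not called (adjusted p = 0.057 and 0.0659), with 21.4 FPKM in the unnumbered control library and 5.27 to 5.65 in the others. The Cxcl5 neighbors Cxcl1, Cxcl2 and Cxcl3 were not called in either group.

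Of the other CC chemokines, Ccl20, the epithelial ligand of Ccr6, was lower in both groups. Ccl20 stood at 99.1, 41.3 and 33.5 FPKM in control libraries, 15.9, 14.6 and 13.7 in Rasa1-KO-labelled libraries, 7.40, 8.65 and 9.11 in Nf2-KO libraries and 60.2, 42.7 and 46.3 in double-KO-labelled libraries. It fell by 1.88 ± 0.36 in Rasa1-KO-labelled libraries and by 2.76 ± 0.37 in Nf2-KO on the log2 scale (adjusted p = 0.00154 and 0.000112). Ccl28, a mucosal chemokine, was lower in Nf2-KO (log2 fold change -1.24 ± 0.27), and Ccl9 was 2.20-fold higher there. Ccl17, Ccl25, Ccl27a and Ccl27b were not called. Ccr7, the receptor that leads cells to lymph nodes, had 3, 9 and 13 counts in the control libraries. Its level was 0.0134 to 0.131 FPKM in control and 0.414 to 0.566 in Rasa1-KO-labelled libraries (log2 fold change 3.04 ± 0.56, adjusted p = 0.00127), and 0.140 to 0.273 in Nf2-KO (1.66 ± 0.56, adjusted p = 0.0314). Ccr10 was not called.

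**Figure D5:**
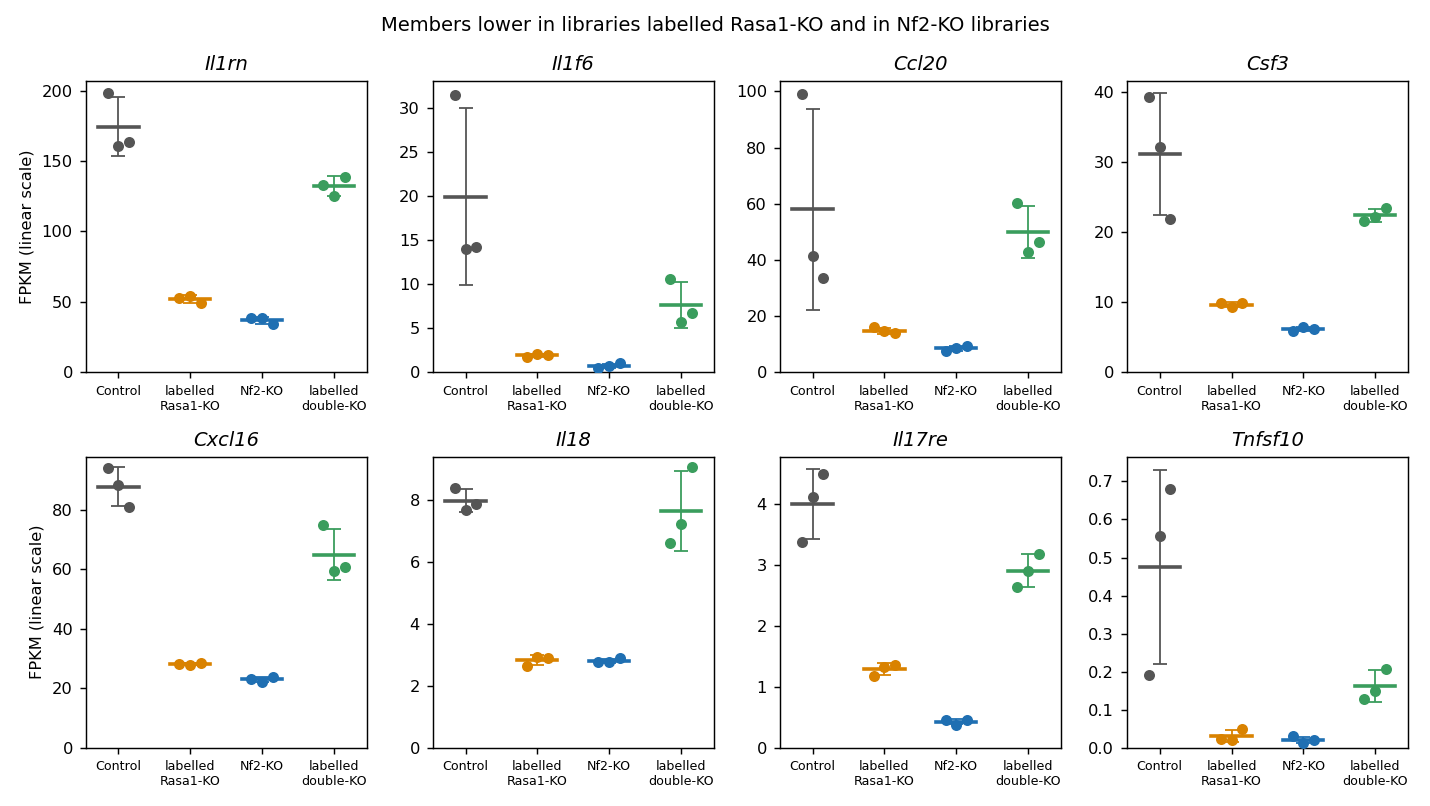
FPKM (linear scale from 0) of 8 genes called lower than control in Rasa1-KO-labelled libraries and in Nf2-KO: points are libraries, lines are means and bars are SD over 3 libraries per group. No library of these groups overlapped a control library or a double-KO-labelled library in any panel. Most of these genes were named by a rule that asks for groups without overlap, so the separation follows in part from that choice.

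Colony-stimulating factors drive the growth of myeloid cells, Csf3 of neutrophils, Csf2 of granulocytes and macrophages and Csf1 of macrophages. For Csf3, control libraries held 39.3, 32.2 and 21.9 FPKM, Rasa1-KO-labelled libraries 9.90, 9.23 and 9.79, Nf2-KO libraries 5.86, 6.42 and 6.10 and double-KO-labelled libraries 21.6, 22.1 and 23.4. The level of Csf2 was 4.35, 5.70 and 2.72 FPKM in control, 1.69, 1.08 and 1.14 in the Rasa1-KO-labelled group, 1.01, 0.948 and 1.20 in Nf2-KO and 2.12, 4.96 and 5.86 in the double-KO-labelled group. Both were lower in the Rasa1-KO-labelled and Nf2-KO groups without overlap, Csf3 by 1.52 ± 0.18 and 2.22 ± 0.18 and Csf2 by 1.54 ± 0.37 and 1.92 ± 0.38 on the log2 scale. Csf1 stood at 24.6, 19.3 and 18.7 FPKM in control libraries, 11.4, 12.3 and 11.3 in Rasa1-KO-labelled libraries, 29.6, 30.2 and 27.8 in Nf2-KO libraries and 14.2, 11.4 and 11.4 in double-KO-labelled libraries. Csf1 separated the 2 groups: it was lower in Rasa1-KO-labelled libraries (log2 fold change -0.69 ± 0.15, adjusted p = 0.00306) and higher in Nf2-KO (log2 fold change 0.56 ± 0.14, adjusted p = 0.00899), a difference of -1.24 ± 0.15 between them (adjusted p = 0.00107). It was lower in double-KO-labelled libraries too (log2 fold change -0.66 ± 0.15, adjusted p = 0.0198). Csf1r, its receptor, was below 0.8 FPKM in every library. It was called higher in Nf2-KO (log2 fold change 0.90 ± 0.32, edgeR adjusted p = 0.0373), a call lost under 9 of 22 alternatives. Csf2ra was not called.

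Members of the TNF superfamily and their receptors were mostly lower or uncalled. For Tnfsf10, control libraries held 0.190, 0.555 and 0.679 FPKM, Rasa1-KO-labelled libraries 0.0220, 0.0202 and 0.0484, Nf2-KO libraries 0.0295, 0.0124 and 0.0201 and double-KO-labelled libraries 0.128, 0.150 and 0.208. Tnfsf10, the death ligand TRAIL, was at most 0.679 FPKM and fell to 0.0738 and 0.0489 of control (adjusted p = 0.000176 and 6e-05), while its receptor Tnfrsf10b was not called. The level of Tnfsf13 was 15.04, 12.8 and 9.53 FPKM in control, 8.32, 6.42 and 6.80 in the Rasa1-KO-labelled group, 3.24, 3.58 and 3.42 in Nf2-KO and 11.3, 14.2 and 15.2 in the double-KO-labelled group. Tnfsf13, the B-cell factor APRIL, was lower by 0.69 ± 0.19 in Rasa1-KO-labelled libraries and by 1.82 ± 0.19 in Nf2-KO, and differed between them by 1.13 ± 0.19. Tnfsf12, its neighbor and the ligand TWEAK, was lower by 0.59 in Nf2-KO, a call lost under 11 of 22 alternatives.

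Tnfrsf11a stood at 3.62, 3.54 and 3.98 FPKM in control libraries, 1.56, 1.68 and 1.62 in Rasa1-KO-labelled libraries, 1.06, 1.09 and 0.890 in Nf2-KO libraries and 4.42, 3.41 and 3.25 in double-KO-labelled libraries. Tnfrsf11a (RANK) fell by 1.12 ± 0.13 and 1.93 ± 0.13 on the log2 scale, and the 2 TNF receptors Tnfrsf1a and Tnfrsf1b by 1.07 and 1.10 and by 0.97 and 1.00. All libraries of the Rasa1-KO-labelled and Nf2-KO groups lay below control for these 3 receptors. Tnfrsf14 was lower as well, by 1.64 and 1.93, but overlapped control, and these calls were lost under 7 and 2 of 22 alternatives. For Tnfrsf12a, control libraries held 138, 97.2 and 62.6 FPKM, Rasa1-KO-labelled libraries 162, 153 and 163, Nf2-KO libraries 149, 156 and 171 and double-KO-labelled libraries 124, 102 and 101. Tnfrsf12a was the TNF receptor called higher, 1.73-fold and 1.65-fold, without overlap, but these calls were lost under 4 and 6 of 22 alternatives. Tnfrsf22 and Tnfrsf23, decoy receptors for TRAIL that neighbor each other on chromosome 7, had log2 fold changes of -1.36 to -1.08 that were not called, with the unnumbered control library at 1.05 and 3.48 FPKM and the others at 5.73 to 19.7.

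Double-KO-labelled libraries differed from control in the fewest of these genes. Of the 86 genes, 5 were higher and 2 lower, with 4.0% of all genes higher and 2.46% lower. The higher genes were Ccl8, Cxcl3, Il4ra, Il33 and Il5ra and the lower genes Csf1 and Il13ra2. The level of Cxcl3 was 7.29, 10.7 and 15.05 FPKM in control, 7.62, 9.27 and 7.64 in the Rasa1-KO-labelled group, 12.1, 12.6 and 13.1 in Nf2-KO and 18.9, 16.1 and 17.0 in the double-KO-labelled group. Cxcl3, a neutrophil-attracting chemokine, was 1.72-fold higher than control (adjusted p = 0.0302), a call lost under 11 of 22 alternatives. The calls of Il4ra, Il5ra and Csf1 were lost under 4 each and those of Il33 and Il13ra2 under 1 each. The median log2 fold change of the 86 was -0.09, and that of all genes -0.04. This count moved with the libraries: it was 21 without the unnumbered control library, 2 without either library 2 or library 3 of the double-KO-labelled group, and 0 when only these 2 groups were fitted with edgeR, where 12 genes had an unadjusted p under 0.05 and DESeq2 over all groups called 13. With the number in the table names as a block, which may pair these libraries, it was 15, with 9 higher and 6 lower.

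Compared with Rasa1-KO-labelled libraries, double-KO-labelled libraries had 29 of the 86 genes higher and 14 lower, against 16.3% and 14.0% of all genes. The median log2 difference was 0.34 for the 86 and 0.00 for all genes. The lower genes included Il1rl1 (-4.10 ± 0.34), Il6 (-2.88 ± 0.44), Il12rb1 (-1.79 ± 0.46), Ccr7 (-1.55 ± 0.50) and Il33 (-1.53 ± 0.19). The higher genes included Tnfsf10 (2.35 ± 0.50), Il1f6 (2.01 ± 0.39), Il18bp (1.82 ± 0.31), Ccl20 (1.74 ± 0.36), Tnfrsf23 (1.74 ± 0.46) and Csf2 (1.65 ± 0.37). Il7, a lymphocyte growth factor, and Tnfrsf9 (4-1BB) were lower here by 0.74 and 0.97 although neither was called against control. Because the names of the deposited tables give these groups the opposite labels, all 43 directions change sign if the labels are exchanged.

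Between Rasa1-KO-labelled and Nf2-KO libraries, 6 of the 86 genes were higher and 7 lower in the former. These are 6.98% and 8.14% of the members, against 1.92% and 1.74% of all genes. Higher were Il5ra (1.89 ± 0.33), Il17re (1.62 ± 0.15), Tnfsf13 (1.13 ± 0.19), Tnfrsf11a (0.81 ± 0.13), Il18r1 (0.59 ± 0.11) and Il1rn (0.56 ± 0.12). Lower were Ccl9 (-1.30 ± 0.31), Csf1 (-1.24 ± 0.15), Il1rap (-0.69 ± 0.16), Il17rd (-0.64 ± 0.15), Lifr (-0.61 ± 0.14), Ccl2 (-0.56 ± 0.12) and Il6st (-0.46 ± 0.11). The call of Il6st was lost under 13 of 22 alternatives, that of Il17rd under 11 and those of Ccl9 and Il1rap under 9 each. Calls of Il1rn, Lifr and Ccl2 were lost under 8 each, that of Il18r1 under 6 and that of Il5ra under 2. Those of Il17re, Csf1, Tnfsf13 and Tnfrsf11a were kept under all alternatives but exchanged labels. The count rose to 27 without the unnumbered control library, was 4 to 6 without any 1 of the Rasa1-KO-labelled or Nf2-KO libraries, was 8 without library 3 of the double-KO-labelled group, and was 40 when only these 2 groups were fitted.

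The last contrast asked whether the double-KO-labelled libraries carried the sum of the log2 changes of the Rasa1-KO-labelled and Nf2-KO groups. As labelled, 57 of the 86 genes departed from that sum, 37 above it and 20 below, with 27.4% and 24.9% of all genes. Il1rl1 lay 9.27 ± 0.49 below the sum on the log2 scale and Il1f6 6.81 ± 0.59 above it. These values rest on the labels. With Rasa1-KO and double-KO exchanged, Il1rl1 lay 1.07 ± 0.43 below the sum and was not called (edgeR adjusted p = 0.194). Il1f6 then lay 2.80 ± 0.55 above it (edgeR adjusted p = 0.0117), and 15 of the 86 departed, 10 above and 5 below. The share of all genes that departed with the labels exchanged is not given here, so this lower count cannot be read as particular to these genes.

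Of 46 ligand and receptor pairs listed, 19 had both genes in the tables, and 6 pairs were at 1 FPKM or more in all 12 libraries: Lif with Lifr and with Il6st, Il18 with Il18r1, Il1rn with Il1r1, Tnfsf12 with Tnfrsf12a and Tnfsf9 with Tnfrsf9. Another 7 pairs did not reach this level together in any library, among them Csf1 and Il34 with Csf1r and Cx3cl1 with Cx3cr1. Many receptors of the secreted chemokines have no row here, so these pairs describe only part of the family.

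Other genes of these pathways are given as counts and medians, beside 19.7% of all genes higher and 22.2% lower in Rasa1-KO-labelled libraries, 20.6% and 22.2% in Nf2-KO and 4.0% and 2.46% in double-KO-labelled libraries. Of 40 genes of NF-kB and TNF receptor signaling, 1 was higher and 19 lower in Rasa1-KO-labelled libraries, 1 higher and 21 lower in Nf2-KO, and 2 lower in double-KO-labelled libraries. The median log2 fold changes were -0.41, -0.42 and -0.13, and those of all genes -0.08, -0.07 and -0.04. Birc3, an NF-kB-induced inhibitor of apoptosis, had log2 fold changes of -1.75 and -1.99 in the first 2 groups, Nfkbie, an NF-kB inhibitor, -1.71 and -1.84, and the kinase Ikbke -1.39 and -1.52. Ikbke and Irak2 were the genes lower in double-KO-labelled libraries, by 0.60 and 0.49. Of 27 JAK and STAT signaling genes, 8 were higher in each of the Rasa1-KO-labelled and Nf2-KO groups and 5 and 4 lower, and 2 were higher in double-KO-labelled libraries. Their medians were -0.15, -0.11 and 0.06. The higher genes included the kinase Pim1 (2.59 and 2.14) and the feedback inhibitors Socs1 (0.96 and 1.09) and Socs3 (0.92, 0.96 and, in double-KO-labelled libraries, 0.99).

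Family genes whose names fall outside the symbol rule numbered 30. Of these, 5 were higher and 11 lower in Rasa1-KO-labelled libraries, 8 and 12 in Nf2-KO, and 2 and 2 in double-KO-labelled libraries. Their medians were -0.35, -0.36 and -0.12. The shares of all genes called and the medians of all genes given above for the pathways apply here too. Tnf itself had a mean of 4.15 FPKM in control, 0.564 in Rasa1-KO-labelled libraries, 0.290 in Nf2-KO and 2.25 in the double-KO-labelled group, with log2 fold changes of -2.75, -3.76 and -0.78 that were all called. Ltb, lymphotoxin beta, fell by 4.03 and 4.85 and the platelet chemokine Pf4 by 3.32 and 3.63 in the first 2 groups. The death receptor Fas fell by 2.18 and 1.34, and Epor, the erythropoietin receptor, rose by 2.04, 2.87 and 1.53.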

How the data were processed

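Total RNA depleted of ribosomal RNA from 12 libraries of S1 cells was sequenced as paired reads, in 4 groups of 3. Per the submitters' processing notes and the study's methods, the authors used Trimmomatic 0.38 for trimming, HISAT2 2.1.0 for alignment (build mm10), SAMtools 1.9, and StringTie 2.1.3b for levels of RefSeq genes. The authors deposited raw read counts, FPKM, TPM and log2 values per gene and library. The deposited TPM and log2 values were not used for any result, and whether counting used strand is not given in the sources used here. No gene of the 18926 was at 0 counts in any library.

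Counts were tested with the quasi-likelihood F test of edgeR 4.0.16 (R 4.3.3) with TMM factors (0.946 to 1.15) and its expression filter, in 1 fit of the 4 groups with no block, and p-values were adjusted by Benjamini and Hochberg over 18053 genes. Levels are the deposited FPKM, and errors of log2 fold changes are SE. Ranges within a group use counts scaled by depth and TMM factor. A separate test of 1 gene with 3 libraries against 3 could not go below p = 0.1 by exact permutation. Alternatives used DESeq2 1.42.0, limma 3.58.1 on log2(FPKM + 1) and log2(FPKM + 0.1), other size factors and filters, single groups, blocks, exchanged labels and each library left out. The steps were tested on simulated data. Figures were drawn with matplotlib 3.10.9. Depth per library sets counting error only.

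Libraries were grouped by the labels. Deviations from the group means were correlated over genes to see whether replicate numbers pair libraries. Numbers in the titles gave r from -0.379 to 0.399, and both ends were control against double-KO-labelled libraries. For these groups, the numbers in the table names gave r = 0.626, 0.313 and 0.444, all positive. The values of both numberings overlap, so pairing was not settled.

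Members, gene lists and pairs were chosen with earlier results of these data known. The genes named with values are, for each comparison, up to 8 members with the largest log2 fold change in each direction among those called, where each library held over 3 counts and the groups did not overlap (up to 10 by adjusted p for the 4-group test and additivity), the 10 members with the highest mean, the targeted genes and up to 4 called genes per list. Other members are named so that each role is accounted for, and were chosen after their values were seen. Promoter windows come from RefSeq (GRCm38.p6), with 63 of the 86 genes matched.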

Additional observations from a re-analysis of the deposited data

Results flagged for a closer look

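Of the 47 cytokine and receptor genes named by rule, 41 departed from additivity in double-KO-labelled libraries (edgeR, interaction contrast, adjusted p under 0.05). Departure is from the sum of the log2 changes of the Rasa1-KO-labelled and Nf2-KO groups. The rule picks genes partly by this contrast and by large differences between groups, so 41 of 47 does not show how common departures were. Of all genes tested, 27.4% lay above the sum and 24.9% below it. The departures rest on labels that Nf2 mRNA goes against, and the order below holds only as labelled. The departures are on the log2 scale, and a positive value means a level in double-KO-labelled libraries above the sum. The largest positive departures were Il1f6 6.81, Tnfsf10 6.70, Ccl20 4.50, Il17re 4.29, Csf2 3.57, Il1rn 3.53, Il18bp 3.43, Csf3 3.38, Tnfrsf11a 3.10, Cxcl16 3.06, Cxcl17 2.99 and Il20rb 2.99. The remaining positive departures were Tnfrsf23 2.94, Il15ra 2.85, Il18 2.83, Tnfsf13 2.72, Il22ra1 2.69, Cxcl5 2.09, Osmr 1.98, Il18r1 1.95, Il18rap 1.84, Ccl2 1.79, Il5ra 1.20 and Cxcl3 0.79. Negative departures were Il1rl1 -9.27, Il6 -5.19, Il33 -4.80, Il12rb1 -4.43, Ccr7 -3.21, Il11 -2.95, Il1rap -2.73, Ccl7 -2.62, Ccl8 -2.10, Il16 -2.02, Ccl9 -1.77, Il17rd -1.67, Cxcl10 -1.33, Tnfrsf12a -1.28, Tnfrsf9 -1.06, Il13ra1 -0.93 and Csf1 -0.53. Each value uses all 4 groups and rests on the labels of 2 of them. As labelled, 57 of all 86 genes departed from the sum, and with the labels Rasa1-KO and double-KO exchanged 15 did. The share of all genes that departed with the labels exchanged is not given here. Of the 41 genes above, 12 were called with the labels exchanged, and their departures then ran from -1.75 (Il33) to 2.80 (Il1f6), with Il1rl1 at -1.07, Il6 at 0.57, Tnfsf10 at 2.01, Ccl20 at 1.01 and Il17re at 1.97.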

How the results depend on the processing

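Of the 86 genes, 51 were called in Rasa1-KO-labelled libraries against control, 50 in Nf2-KO against control, 7 in double-KO-labelled libraries against control, 43 between double-KO-labelled and Rasa1-KO-labelled libraries, 13 between Rasa1-KO-labelled and Nf2-KO libraries, and 57 for departure from additivity. Of these calls, 41, 40, 0, 29, 4 and 47 held under every alternative but exchanged labels.
Requiring at least 3-fold and an unadjusted p under 0.05 gave 16, 22, 1, 9 and 2 genes in the first 5 of these contrasts, and adding at least 2-fold to the adjusted p gave 33, 3, 27 and 5 in all of them but Nf2-KO against control, where the count stayed within 1.5 times. The 2 small counts moved most. For double-KO-labelled libraries against control, the count was 13 with DESeq2, 0 with only the groups compared, and 23 without the libraries unnumbered in the table names, and leaving out each library gave 2 to 21. For Rasa1-KO-labelled against Nf2-KO libraries, these values were 23, 40, 38 and 4 to 27. A replicate block by the number in the titles, which was not shown to pair libraries, gave 2 and 5 for these contrasts. A replicate block by the number in the table names gave 15 and 24. Neither block moved the count of another contrast by more than 1.5 times. With the labels Rasa1-KO and double-KO exchanged, 7 genes were called in Rasa1-KO-labelled and 51 in double-KO-labelled libraries against control, 43 against Nf2-KO and 15 for additivity. The cause of these differences was not tested.

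Among 6139 alternative values of named genes, 5724 kept their side of the threshold, which includes changes of sign where neither value was called. A further 231 lost a call, 182 gained one and 2 changed sign with a call. Both were Ccl20 in double-KO-labelled libraries against control, -0.14 on the log2 scale and not called, which was 0.56 without the unnumbered control library and 0.38 without the libraries unnumbered in the table names, and ranged from -0.42 to 0.56 when each library was left out. Counting error limits mainly the lowest genes, such as Ccr7 with 3 counts in a control library.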
